A study of Mus musculus with 11 samples.

Results

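*Alox12e* mRNA was measured with its lipoxygenase relatives in the lacrimal glands of male NOD mice, a strain that spontaneously develops autoimmunity of these tear-producing glands. It was the most abundant of the measured lipoxygenase enzymes in WT glands. In glands that lack *Tlr7* or *Ifnar1* it was at a small fraction of that level, and its neighbour *Alox12* was lower as well. *Alox15*, its other neighbour, was lower on average, but from few counts, and entered both tests through WT alone. With some single mice left out, *Alox15* missed the test in both knockouts and *Alox12* missed it in *Ifnar1* KO glands. The *Ifnar1* KO fits that *Alox12* missed called at most 121 of 13937 genes tested. The genes described are *Alox12e*, *Alox12*, *Alox12b*, *Aloxe3*, *Alox15*, *Alox5* and *Alox5ap*, taken by name from the arachidonate lipoxygenase family. Of these 7 genes, 6 are among the 19058 genes of the main count table, and *Alox12b* is found only in a second table of 39017 genes. *Alox12e* was chosen because it is lower in both knockouts, so its differences from WT are a description without a test. The relatives were taken for their family name and were tested in fits over all genes.

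RNA from whole glands of 3 WT, 5 *Tlr7* KO and 3 *Ifnar1* KO mice was sequenced, with 1 gland and 1 library per mouse. WT mice were NOD/ShiLtJ, *Tlr7* KO mice were NOD mice of a line that carries 1 edited allele, a 2-base deletion in the X-linked *Tlr7*, and *Ifnar1* KO mice were NOD.*Ifnar1* em16/em16. TLR7 is an endosomal sensor of single-stranded RNA and IFNAR1 a subunit of the type I interferon receptor. All mice were male. WT and *Tlr7* KO mice were 20 to 22 weeks old, and the age of the *Ifnar1* KO mice was not given in the sources used here. The study left out 1 further *Ifnar1* KO mouse because it resembled WT, so the *Ifnar1* KO group was partly chosen on its outcome. Each knockout is a single edited line, and both knockout comparisons use the same 3 WT mice.

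Lipoxygenases add oxygen to polyunsaturated fatty acids such as arachidonic acid, which phospholipases release from membranes. The hydroperoxides formed are reduced to hydroxy fatty acids by peroxidases or passed on to leukotrienes, lipoxins and hepoxilins, which act on leukocytes, vessels and epithelia. Mouse *Alox12e* encodes the epidermal-type 12-lipoxygenase, *Alox12* the platelet-type enzyme, and *Alox15* the leukocyte-type 12/15-lipoxygenase of macrophages and eosinophils. *Alox12b* and *Aloxe3* encode the pair of enzymes that act in sequence to build the skin barrier. *Alox5* encodes the enzyme that starts leukotriene synthesis, and *Alox5ap* encodes its membrane partner FLAP, which is not itself a lipoxygenase.

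*Alox12e* (ENSMUSG00000018907) lies on the minus strand of GRCm38 at chr11:70315610-70322628, between 2 of its relatives. *Alox12* (ENSMUSG00000000320), at chr11:70241457-70255353, is 60.3 kb away on one side, and *Alox15* (ENSMUSG00000018924), at chr11:70344152-70352031, is 21.5 kb away on the other. *Aloxe3* (chr11:69125896-69149115) and *Alox12b* (chr11:69156989-69169792) form a separate pair, 7.9 kb apart on the plus strand of the same chromosome. *Alox5* is at chr6:116410077-116461178 and *Alox5ap* at chr5:149264767-149288153. The *Alox5ap* locus overlaps the annotated genes *n-R5s180* and *Gm19719*, so reads there could be counted for another gene. The other members overlap no annotated gene.

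The coding sequence of *Alox12e*, 1989 bases long, was 69.3% identical to that of *Alox15* and 67.4% identical to that of *Alox12* over the aligned bases, and between 58.3% and 60.4% identical to those of *Alox12b*, *Aloxe3* and *Alox5*. Because such likeness could let reads of one gene be counted for another, a stretch of exon 6 is shown for the 3 neighbouring genes. It surrounds the longest run of bases that *Alox12e* shares with *Alox15*, which is 16 bases. Each stretch has 101 bases of coding sequence from the GENCODE M21 transcripts, written 5′ to 3′ on the minus strand of GRCm38, with the 65 bases found in all 3 genes in capitals. It covers chr11:70320790-70320890 in *Alox12e*, chr11:70349604-70349704 in *Alox15* and chr11:70252458-70252558 in *Alox12*.
Alox12e: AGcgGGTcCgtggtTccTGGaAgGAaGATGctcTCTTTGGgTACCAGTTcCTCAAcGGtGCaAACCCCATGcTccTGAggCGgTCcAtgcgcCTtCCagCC
Alox15: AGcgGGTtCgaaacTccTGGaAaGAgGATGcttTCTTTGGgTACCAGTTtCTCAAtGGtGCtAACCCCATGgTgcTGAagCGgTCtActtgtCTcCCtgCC
Alox12: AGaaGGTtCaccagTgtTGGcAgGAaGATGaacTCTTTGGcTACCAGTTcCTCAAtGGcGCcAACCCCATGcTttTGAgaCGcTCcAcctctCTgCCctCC
Even here, 80 of the 101 bases of *Alox15* and 72 of those of *Alox12* matched *Alox12e*. No run of 31 bases was shared between the annotated transcripts of any pair of the members.

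The libraries held between 20512315 and 28814250 counts assigned to genes, and levels are given as CPM, the counts relative to the size of the library, after TMM scaling, with the SD over mice. A floor of 3 counts was between 0.082 and 0.158 CPM across the mice and covers counting error only. *Tlr7* itself was lower in *Tlr7* KO glands (0.778 ± 0.176 CPM, n = 5) than in WT (2.39 ± 0.763 CPM, n = 3), and *Ifnar1* was 9.02 ± 0.648 CPM in *Ifnar1* KO glands (n = 3) and 13.5 ± 2.63 CPM in WT. In *Tlr7* KO glands *Ifnar1* was 9.56 ± 1.08 CPM. An allele that changes few bases need not lower its transcript, and *Tlr7* was as low in *Ifnar1* KO glands (0.562 ± 0.289 CPM). Acinar cell genes were abundant in every library, with summed levels of 1968 to 6142 CPM. Transcripts of the parotid list (*Amy1*, *Cst10* and *Bpifa2* in the table) summed to 2514 CPM in WT 3, 2173 CPM in *Ifnar1* KO 2 and 185 CPM in *Ifnar1* KO 1, against 0.574 to 3.12 CPM in the other mice. These 3 libraries stand apart, so results are also given without them.

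*Alox12e* was 13.5, 6.58 and 20.04 CPM in WT 1, 2 and 3, from 395, 156 and 733 counts. In *Tlr7* KO 1 to 5 it was 1.22, 1.87, 1.22, 0.824 and 0.845 CPM, from 32, 43, 32, 20 and 16 counts. *Ifnar1* KO 1, 2 and 3 had 0.851, 1.61 and 0.0419 CPM, from 25, 43 and 1 counts. Every knockout mouse lay below every WT mouse, with 6.58 CPM in the lowest WT library and 1.87 CPM in the highest knockout library. Of 13937 genes, 14.2% separated in this way in *Tlr7* KO and 21.1% in *Ifnar1* KO mice. The fitted difference was 11.2-fold in *Tlr7* KO glands (log2 fold change -3.48, SE 0.359) and 16.1-fold in *Ifnar1* KO glands (-4.01, SE 0.762). These values chose the gene and carry no test. The *Ifnar1* KO value was -4.84 without *Ifnar1* KO 2 and -3.49 without *Ifnar1* KO 3. The WT mice themselves differed widely, with a coefficient of variation of 50.3%. WT 2, the lowest of them, was also the lowest WT mouse for *Alox12*, *Alox15* and *Alox5ap*. In bulk RNA, fewer cells of a type and less RNA per cell cannot be told apart.

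**Figure D1:**
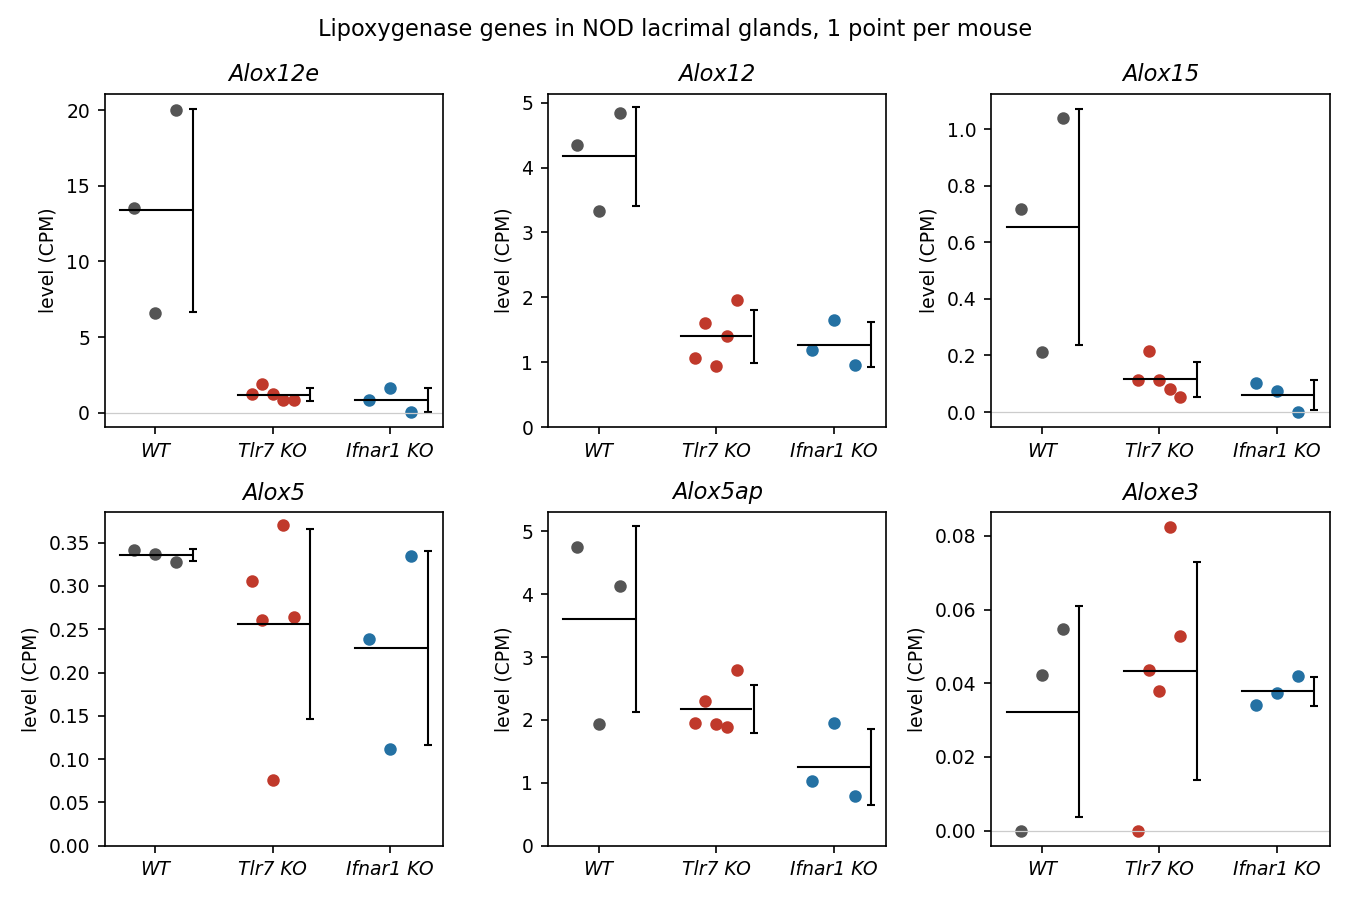
Level of each measured gene in CPM (vertical axis, linear) for WT, *Tlr7* KO and *Ifnar1* KO mice, with 1 point per mouse, a line at the group mean and a bar for the SD. *Alox12e* and *Alox12* separate WT from both knockouts, *Alox15* overlaps WT in the *Tlr7* KO mice, *Alox5ap* overlaps WT in both knockouts, and *Alox5* and *Aloxe3* overlap throughout.

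Among the 6 relatives, 4 had enough counts to be tested (a sum of at least 30 over the WT mice). In *Tlr7* KO glands 2 of these 4 were lower and none was higher, where 17.4% of the 13937 genes tested were lower and 15.3% higher. Scaled by library size only, 97.2% of the genes called in *Tlr7* KO and 96.2% of those in *Ifnar1* KO glands were lower. In *Ifnar1* KO glands 3 of the 4 were lower and none was higher, where 12.4% of all genes tested were lower and 6.76% higher. On the log2 scale the median difference of the 4 relatives was -1.17 (*Tlr7* KO) and -1.65 (*Ifnar1* KO), and that of all genes tested -0.037 and -0.017. Because this filter reads the WT mice alone, a gene could be tested through WT and be scarce in a knockout: *Alox15* and *Alox5* averaged under 10 counts per mouse in both knockouts, so these counts and medians describe the tested relatives and support nothing about the family. Called means an adjusted p under 0.05 in edgeR's quasi-likelihood test, after Benjamini-Hochberg adjustment over all genes tested. The mice may share litters or days that the labels do not give, so p-values measure the spread between these animals.

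*Alox12*, the platelet-type gene, was 4.34, 3.33 and 4.84 CPM in the WT mice. It was 1.07, 1.61, 0.950, 1.40 and 1.95 CPM in *Tlr7* KO and 1.19, 1.64 and 0.963 CPM in *Ifnar1* KO mice. All knockout mice lay below all WT mice. This separation was found for 14.2% of genes tested in *Tlr7* KO and for 21.1% in *Ifnar1* KO mice. *Alox12* fell 3.02-fold in *Tlr7* KO glands (log2 fold change -1.59, SE 0.241, adjusted p = 0.00233 by edgeR) and 3.35-fold in *Ifnar1* KO glands (-1.74, SE 0.267, adjusted p = 0.0210). Its coefficient of variation between WT mice was 18.4%, against 63.6% for *Alox15*, 41.0% for *Alox5ap* and 2.14% for *Alox5*. The difference from WT in *Tlr7* KO glands passed the test without each mouse in turn. That in *Ifnar1* KO glands missed it when WT 1, WT 3 or either of *Ifnar1* KO 1 and 3 was left out (adjusted p from 0.0641 to 0.0799 by edgeR). In that order, these fits called 13, 121, 0 and 0 of all genes tested. With each mouse left out in turn, the *Alox12* difference in *Ifnar1* KO glands ran from -1.96 to -1.60. Of the 2 of 8 platelet markers with enough counts, 1 was higher in *Tlr7* KO glands and none was lower in either knockout. Summed over the 4 platelet markers in the main table, levels were 1.22 to 4.28 CPM in WT, 4.10 to 5.12 CPM in *Tlr7* KO and 2.52 to 4.06 CPM in *Ifnar1* KO mice. As a background for the calls, 17.4% of all genes tested were lower and 15.3% higher in *Tlr7* KO glands, and 12.4% and 6.76% in *Ifnar1* KO glands. The part of platelets in the *Alox12* difference was not tested.

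*Alox15* was low in every group. The WT mice had 21, 5 and 38 counts, the *Tlr7* KO mice 3, 5, 3, 2 and 1, and the *Ifnar1* KO mice 3, 2 and 0. WT 2 therefore lay level with the highest *Tlr7* KO mouse. In CPM the WT mean was 0.656 ± 0.417 (n = 3) and the *Tlr7* KO mean 0.116 ± 0.0621 (n = 5), and the log2 fold change was -2.47 (SE 0.565, adjusted p = 0.0108 by edgeR). *Alox15* entered the test through its WT counts (a sum of 64, against 14 in *Tlr7* KO and 5 in *Ifnar1* KO mice), and with no low-count filter the adjusted p was 0.0116. Without WT 3 the adjusted p was 0.0599. In *Ifnar1* KO glands the gene was at the floor of 3 counts in every mouse, at least 5.79-fold lower than in WT against 3 counts per library (adjusted p = 0.0387). That call was lost without any 1 of the mice other than WT 2 (adjusted p from 0.0876 to 0.125). Of all genes tested, 13 were called without WT 1, 121 without WT 3 and 1590 without *Ifnar1* KO 2. Without *Ifnar1* KO 1 or 3, 0 were called. Relative to *Alox12e*, the counts of *Alox15* were 5.32%, 3.21% and 5.18% in WT, 6.25% to 11.6% in *Tlr7* KO, and 12%, 4.65% and 0% in *Ifnar1* KO mice, the last against a single *Alox12e* count.

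*Alox5ap* was 4.76, 1.94 and 4.13 CPM in the WT mice. In *Tlr7* KO mice it was 1.95, 2.30, 1.94, 1.89 and 2.80 CPM, and WT 2 lay within that range. The *Ifnar1* KO mice had 1.02, 1.94 and 0.796 CPM, and *Ifnar1* KO 2 was level with WT 2, so these groups overlapped too. The FLAP gene missed the test in *Tlr7* KO glands (log2 fold change -0.74, SE 0.272, adjusted p = 0.0617 by edgeR) and passed it without WT 2 (-1.04, adjusted p = 0.00164). It was lower in *Ifnar1* KO glands (-1.55, SE 0.441, adjusted p = 0.0479), a call lost when WT 1, WT 3 or either of *Ifnar1* KO 1 and 3 was left out (adjusted p from 0.134 to 0.148). In that order, these fits called 13, 121, 0 and 0 of all genes tested.

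*Alox5*, the enzyme that FLAP serves, was not called in either comparison. It had 10, 8 and 12 counts in the WT mice, a sum of 30 that is just enough to be tested, and 8, 6, 2, 9 and 5 in *Tlr7* KO and 7, 3 and 8 in *Ifnar1* KO mice. The groups overlapped. Its log2 fold change was -0.40 in *Tlr7* KO glands (95% interval -1.42 to 0.63, adjusted p = 0.531 by edgeR) and -0.57 in *Ifnar1* KO glands (-1.80 to 0.65, adjusted p = 0.457), so a level 2-fold lower in either knockout is within the interval. *Aloxe3* had 0 to 2 counts in every mouse and *Alox12b*, in the second table, 2, 0 and 1 counts in WT and 0 in every knockout mouse. These barrier enzymes were at or under the floor of 3 counts in every library, and no difference was detectable at this depth.

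**Figure D2:**
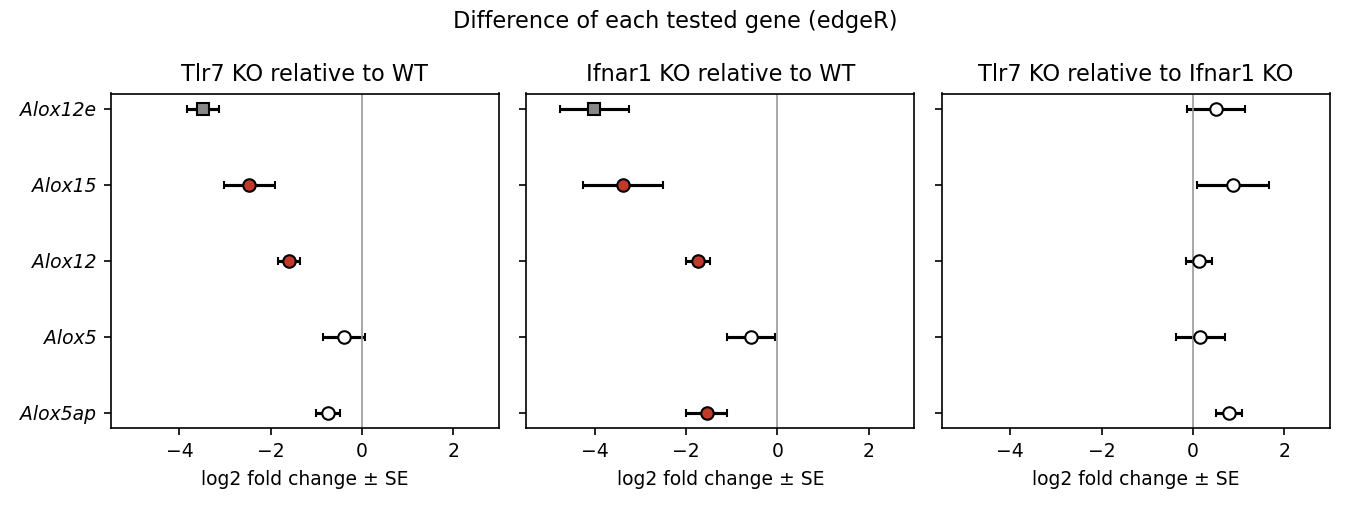
Log2 fold change with its SE (horizontal axis) of the 5 genes with enough counts in each comparison. Filled red points passed an adjusted p of 0.05 in edgeR, open points did not, and grey squares mark *Alox12e* against WT, which was not tested. *Alox12e*, chosen for being lower, and *Alox15*, at the count floor in *Ifnar1* KO mice, lie well below 0 against WT, and no point passed between the knockouts.

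The knockouts were then compared with each other, the only comparison in which *Alox12e* was tested. Of the 4 relatives none was called, and 1.79% of all genes were called. *Alox12e* in *Tlr7* KO relative to *Ifnar1* KO glands had a log2 fold change of 0.51 (SE 0.631, 95% interval -0.89 to 1.91, adjusted p = 0.727 by edgeR), and the groups overlapped. Without *Ifnar1* KO 3, the mouse with a single count, the difference was -0.03. Without the 3 libraries that held parotid transcripts, *Ifnar1* KO 3 alone stood for its group, assumed to vary like the *Tlr7* KO mice, and *Alox12e* passed the test (adjusted p = 0.0339) against that single count. *Alox5ap* was 0.79 higher on the log2 scale in *Tlr7* KO glands (95% interval 0.14 to 1.43, adjusted p = 0.219), and without *Ifnar1* KO 2 it passed the test (1.25, adjusted p = 0.0204). *Alox12* differed by 0.13 (-0.51 to 0.77), *Alox15* by 0.88 (-0.88 to 2.64) and *Alox5* by 0.17 (-1.04 to 1.37). With the replicate number as a block, the count of genes called was 502 rather than 250, and neither *Alox12e* (1.01, adjusted p = 0.438) nor any relative was called.

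Per kilobase of the longest coding transcript, the level of *Alox12e* in WT glands was 5.52 ± 2.78 CPM per kb. *Alox5ap* followed at 2.88 ± 1.18 CPM per kb, with overlapping ranges, and then *Alox12* at 1.39 ± 0.256 CPM per kb. The ranges of *Alox12e*, *Alox5ap* and *Alox12* were 2.72 to 8.27, 1.55 to 3.80 and 1.11 to 1.61, and within each WT mouse they stood in this order. *Alox15* was 0.272 ± 0.173, *Alox5* 0.119 ± 0.00254 and *Aloxe3* 0.0107 ± 0.00949 CPM per kb, and the range of *Alox15* (0.0876 to 0.431) took in that of *Alox5*. The order was different in the knockouts. In *Tlr7* KO glands *Alox5ap* led with 1.74 ± 0.307 CPM per kb, and *Alox12e* (0.494 ± 0.175) and *Alox12* (0.466 ± 0.135) were level. In *Ifnar1* KO glands *Alox5ap* was 1.002 ± 0.486, *Alox12* 0.422 ± 0.116 and *Alox12e* 0.344 ± 0.323 CPM per kb, again with *Alox12* and *Alox12e* overlapping. The counts of *Alox12* were 24.1% to 50.6% of those of *Alox12e* in WT mice, 78.1% to 231% in *Tlr7* KO mice and 102% or more in *Ifnar1* KO mice.

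With TMM scaling, the genomic neighbours of *Alox12e* did not share a single direction. *Rnasek*, which encodes ribonuclease kappa, beyond *Alox12* at 75.8 kb, was 21.97 ± 2.51 CPM in WT (n = 3) and 28.2 ± 1.58 CPM in *Tlr7* KO glands (n = 5), a rise of 0.36 on the log2 scale (adjusted p = 0.0135 by edgeR) that turned to -0.12 when scaled by library size only and missed the test without WT 1 (0.0600) or WT 3 (0.0563). The same difference, 0.36, was fitted in *Ifnar1* KO glands (adjusted p = 0.0694). *Gm21988*, whose reads cannot be fully separated from the overlapping *Rnasek*, had 0.41 and 0.43 and was not called. On the other side, *Pelp1*, a nuclear receptor coregulator gene between *Alox15* and *Arrb2*, had 0.12 and 0.10 and was not called. When scaled by library size only, *Gm21988* turned to -0.087 and *Pelp1* to -0.40 in *Tlr7* KO glands, and *Pelp1* to -0.22 in *Ifnar1* KO glands. *Arrb2*, which encodes β-arrestin 2, an adaptor of activated receptors, fell in both knockouts (-1.10, adjusted p = 0.0248, in *Tlr7* KO and -1.68, adjusted p = 0.0302, in *Ifnar1* KO). It missed the test without WT 1 or WT 3 in *Tlr7* KO (adjusted p = 0.118 and 0.0898), without *Tlr7* KO 1, 3 or 5 (0.0521 to 0.0571), and in *Ifnar1* KO without any mouse but WT 2. In *Ifnar1* KO glands, 13 of all genes tested were called without WT 1, 121 without WT 3 and 1590 without *Ifnar1* KO 2. Without *Ifnar1* KO 1 or 3, 0 were called. Within 300 kb on either side, a window chosen after the values were seen, 9 of the 19 protein-coding genes with enough counts were lower and 1 was higher in *Tlr7* KO glands, where 17.4% of all genes were lower and 15.3% higher (32.8% in either direction). Of the same 19 genes, 5 were lower and none was higher in *Ifnar1* KO glands, against 12.4% and 6.76% of all genes (19.2% in either direction). *Alox12* and *Alox15* are among these genes.

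**Figure D3:**
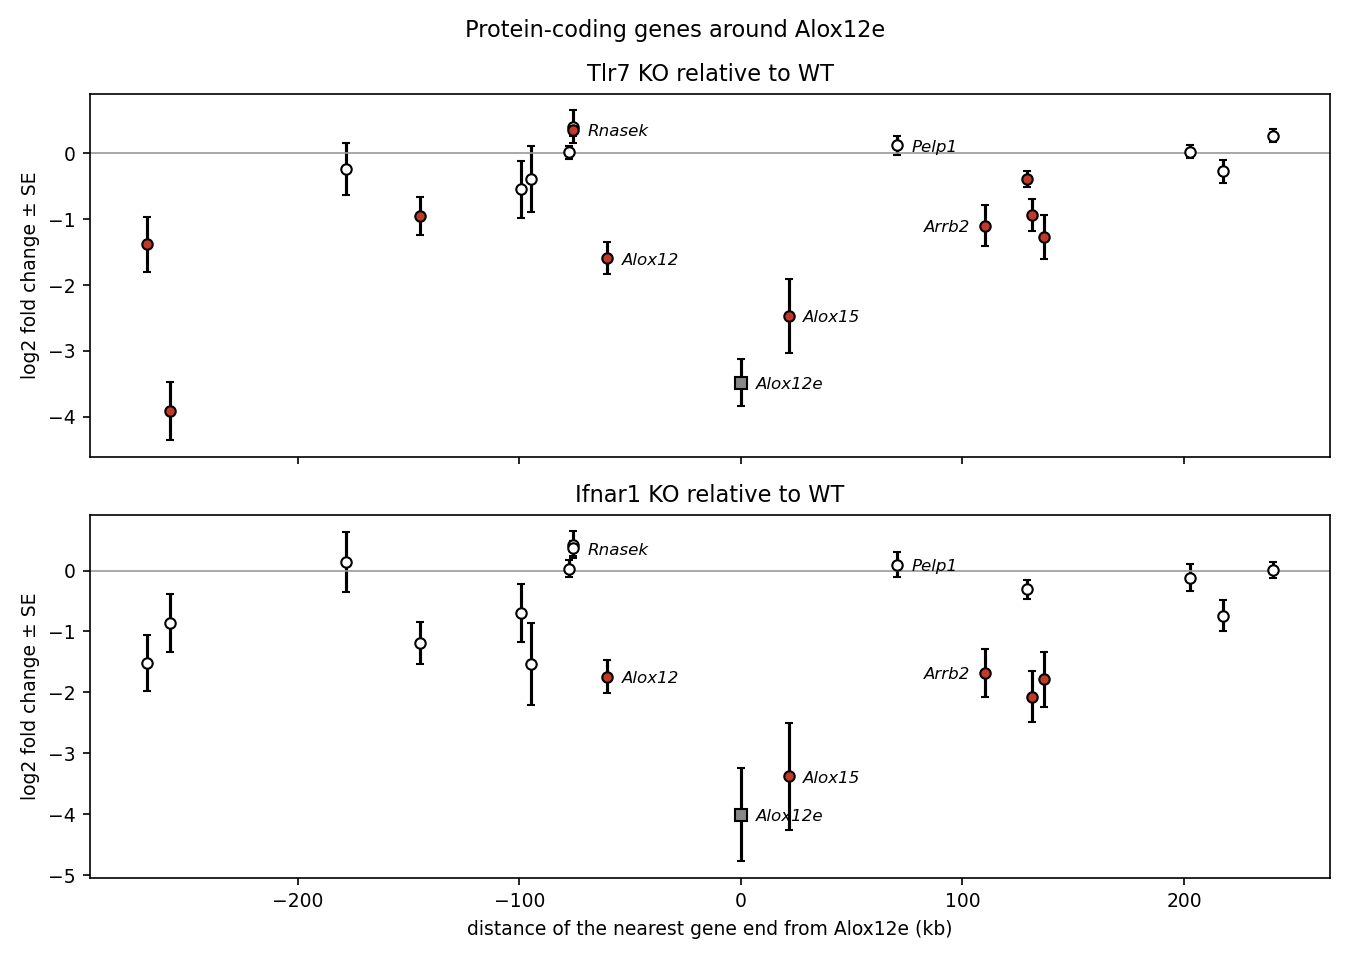
Log2 fold change with its SE (vertical axis) of protein-coding genes by their distance in kb from *Alox12e* (horizontal axis), for *Tlr7* KO (top) and *Ifnar1* KO glands (bottom) relative to WT. Filled red points passed an adjusted p of 0.05 in edgeR, and the grey square is *Alox12e*, which was not tested. *Alox12* and *Alox15* lie below 0 in both panels, and *Rnasek* and *Pelp1*, just beyond them, lie near or above 0.

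Promoter sequence was compared with short motifs of interferon-responsive, myeloid and general promoters. RefSeq promoters on GRCm38, 250 bases before to 50 after the start, were found for 4 of the 7 genes (*Alox12e*, *Alox12*, *Alox12b* and *Alox5*). Neither GAAA followed by NN and a second GAAA, the core of the interferon-stimulated response element, nor TTCNNNGAA, the core of a STAT site, nor TATAAA occurred on either strand in any of the 4, where 3.4%, 8.3% and 13.6% of all 32851 promoters held them. GGGCGG, a GC box core, occurred in all 4, including 1 match at -42 in *Alox12e*, and in 35.7% of all promoters. GAGGAA, a PU.1 core, occurred once each in *Alox12*, *Alox12b* and *Alox5*, was not in the *Alox12e* window, and was held by 28.3% of all promoters.

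Of the 62 further arachidonate pathway genes listed, 31 had enough counts to be tested. Relative to WT, 11 were lower and 8 higher in *Tlr7* KO glands (median difference -0.34 on the log2 scale), and 4 were lower and 2 higher in *Ifnar1* KO glands (median -0.72). Of all genes tested, 17.4% were lower and 15.3% higher in *Tlr7* KO glands, and 12.4% and 6.76% in *Ifnar1* KO glands, so the *Ifnar1* KO counts were near the background. These shares are the background for each branch below, whose counts are a description. Of the 31, 6 averaged under 10 counts per mouse in *Tlr7* KO and 7 in *Ifnar1* KO glands, and entered the test through WT alone. Scaling by library size only, which moved the median of all genes to -0.54 in *Tlr7* KO and -0.31 in *Ifnar1* KO glands, gave 15 lower and 0 higher in *Tlr7* KO and 4 lower and 0 higher in *Ifnar1* KO glands, and ended the rises of *Pla2g12a*, *Ggt1*, *Cers3* and *Ephx2* given below. In the *Ifnar1* KO comparison none of the 31 was called once WT 1, WT 3, *Ifnar1* KO 1 or *Ifnar1* KO 3 was left out. Of all 13937 genes tested, those fits called 13, 121, 0 and 0, so none of 31 is near the background.

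In the phospholipase A2 group, which releases the substrate, 4 of 14 genes had enough counts. *Pla2g2d*, a secreted phospholipase of lymphoid tissue, was 13.0, 3.67 and 10.3 CPM in WT mice, 0.684 to 3.13 CPM in *Tlr7* KO and 0.838 to 2.43 CPM in *Ifnar1* KO mice. It fell with log2 fold changes of -2.50 (SE 0.486, adjusted p = 0.00575 by edgeR) and -2.74 (SE 0.581, adjusted p = 0.0256). The *Ifnar1* KO difference was -3.43 without *Ifnar1* KO 2. *Pla2g4a*, the cytosolic enzyme that frees arachidonic acid on activation, fell in *Tlr7* KO glands (-1.28, SE 0.250, adjusted p = 0.00587) and was -0.72 in *Ifnar1* KO glands (adjusted p = 0.137). *Pla2g12a*, another secreted phospholipase, moved the other way. It was 14.3 ± 2.44 CPM in WT, 28.98 ± 2.37 CPM in *Tlr7* KO and 27.6 ± 4.403 CPM in *Ifnar1* KO glands, and rose by 1.01 (adjusted p = 0.00104) and 0.92 (adjusted p = 0.0235).

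Among the genes of leukotriene and lipoxin synthesis, 7 of 9 were tested, and 3 were lower and 2 higher in *Tlr7* KO, and 2 lower and 1 higher in *Ifnar1* KO glands, where 17.4%, 15.3%, 12.4% and 6.76% of all genes were so called. *Cyp4f18*, which inactivates leukotriene B4 by oxidation, was 3.70 ± 1.28 CPM in WT, 0.703 ± 0.499 CPM in *Tlr7* KO and 0.303 ± 0.259 CPM in *Ifnar1* KO glands. It fell in *Tlr7* KO glands (-2.39, adjusted p = 0.00648 by edgeR). With 9, 15 and 1 counts in the *Ifnar1* KO mice it entered that test through WT alone, and had -3.60 (adjusted p = 0.0225, and 0.0168 with no low-count filter). That difference was -4.33 without *Ifnar1* KO 2 and -3.13 without *Ifnar1* KO 3. *Dpep1* and *Ggt1* trim cysteinyl leukotrienes in successive steps. *Dpep1* fell (-0.74, adjusted p = 0.0428, and -0.87, adjusted p = 0.0207), a call lost in *Tlr7* KO glands without any WT mouse or *Tlr7* KO 1, 2 or 4 (adjusted p up to 0.0970), while *Ggt1* rose from 2.15 ± 0.450 CPM in WT to 4.19 ± 0.777 CPM in *Tlr7* KO and 4.63 ± 1.41 CPM in *Ifnar1* KO glands (0.97, adjusted p = 0.00772, and 1.097, adjusted p = 0.0400). *Ggt5*, a relative of *Ggt1* named after its values were seen, was lower in *Tlr7* KO glands (-1.36, adjusted p = 0.0348) and had -1.24 in *Ifnar1* KO glands (adjusted p = 0.0762). *Ltc4s*, which makes leukotriene C4, had too few counts.

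Only 2 of 8 receptors of lipoxygenase products had enough counts. *Gpr31b*, a receptor for the 12-lipoxygenase product 12-HETE and chosen here after its values were seen, had 21, 4 and 23 counts in WT, 3, 5, 3, 1 and 5 in *Tlr7* KO and 3, 0 and 2 in *Ifnar1* KO mice. WT 2 was again the lowest WT mouse and lay within the *Tlr7* KO range. It entered the test through its WT counts. Its log2 fold change in *Tlr7* KO glands was -1.79 (SE 0.588, adjusted p = 0.0428 by edgeR), a call lost with DESeq2 (0.0504), with no low-count filter (0.0524), and without WT 1 (0.163), WT 3 (0.138) or *Tlr7* KO 1, 2, 3 or 4 (0.0506 to 0.0928), and in *Ifnar1* KO glands it was at the floor, with an adjusted p of 0.0546 that passed with DESeq2 (0.0335), in a single fit of all mice (0.0156) and without WT 2 (0.0160). *Cmklr1*, a receptor for a lipid mediator and the protein chemerin, had -0.47 and -0.99 and was not called.

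Of 4 peroxidases and epoxide hydrolases, which reduce hydroperoxides or open epoxides, 3 were higher in *Tlr7* KO (15.3% of all genes) and none in *Ifnar1* KO glands (6.76% of all genes, so that none of 4 is near the background). *Gpx4*, the peroxidase that reduces lipid hydroperoxides in membranes, was 124 ± 9.54 CPM in WT, 169 ± 16.96 CPM in *Tlr7* KO and 108 ± 17.9 CPM in *Ifnar1* KO glands, a rise in *Tlr7* KO of 0.45 on the log2 scale (adjusted p = 0.0113 by edgeR) that was -0.054 when scaled by library size only. *Ephx2*, a soluble epoxide hydrolase gene, rose in *Tlr7* KO glands (0.61, adjusted p = 0.0109) and was 0.29 in *Ifnar1* KO glands (adjusted p = 0.325). With the second count table its *Tlr7* KO difference was 0.51 and missed the test (adjusted p = 0.0526). In the epidermal barrier group only *Cers3*, a ceramide synthase gene, was tested of 8 genes. It rose in *Tlr7* KO glands (1.53, adjusted p = 0.0175, but 0.0708 without WT 3, and a difference of 2.33 without WT 1). In *Ifnar1* KO glands its difference was 1.15 (adjusted p = 0.185), with 1.96 without WT 1 and 0.75 without *Ifnar1* KO 2. The lipoxygenase gene *Alox8* of the barrier group had 0 to 4 counts in every mouse. Of 19 cyclooxygenase branch genes 13 were tested, and 5 were lower in *Tlr7* KO (17.4% of all genes) and 1 in *Ifnar1* KO glands (12.4% of all genes), with none higher. Among these 5, *Ptger2*, *Ptgis* and *Tbxa2r* averaged under 10 counts per *Tlr7* KO mouse and entered the test through WT alone. The count of 5 is therefore a description only. *Ptger4*, the prostaglandin E2 receptor EP4, fell in both (-1.82, adjusted p = 0.00524, and -2.51, adjusted p = 0.0267). Its *Ifnar1* KO difference was -3.28 without *Ifnar1* KO 2. *Tbxa2r*, the thromboxane receptor, had 22, 6 and 20 counts in WT and 2 to 6 in *Tlr7* KO mice and entered the test through WT. Its log2 fold change was -1.83 in *Tlr7* KO glands (adjusted p = 0.0175, and 0.0219 with no low-count filter, but 0.0931 without WT 1 and 0.0590 without WT 3). In *Ifnar1* KO glands it was -1.71 (adjusted p = 0.191), with -2.79 without *Ifnar1* KO 2 and -1.18 without *Ifnar1* KO 3.

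**Figure D4:**
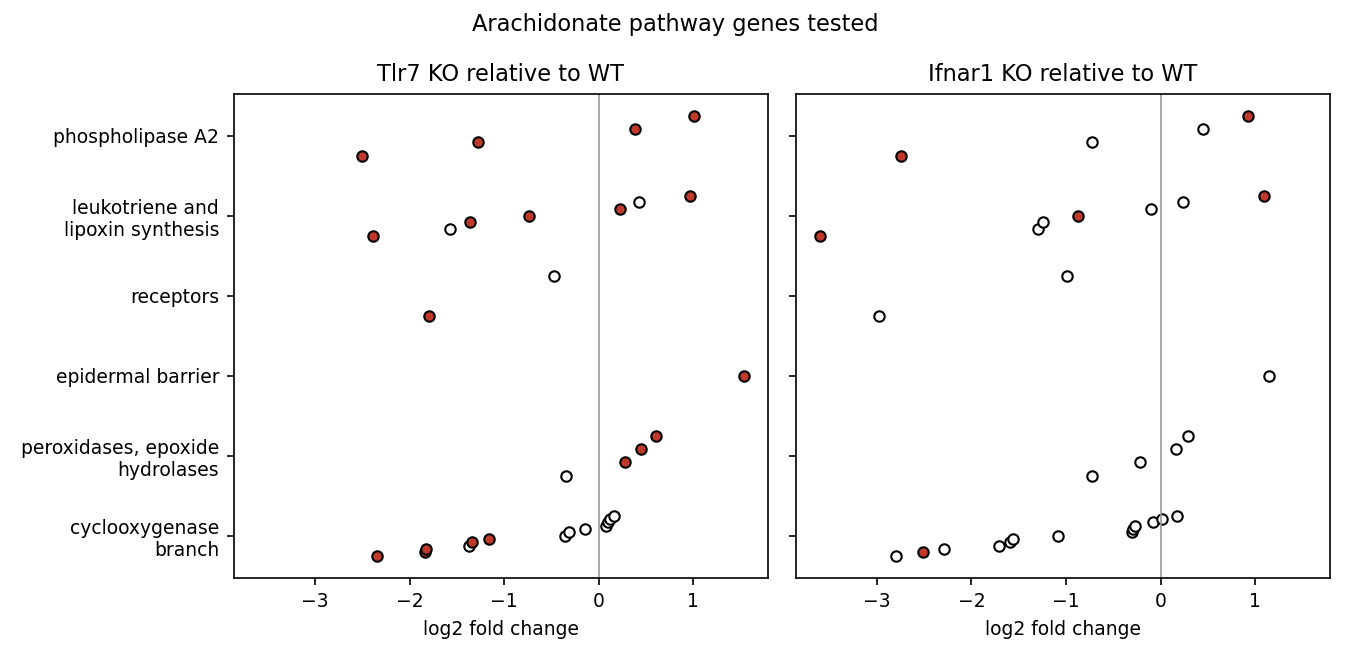
Log2 fold change (horizontal axis) of each arachidonate pathway gene with enough counts, by branch (vertical axis), for *Tlr7* KO (left) and *Ifnar1* KO glands (right) relative to WT. Filled red points passed an adjusted p of 0.05 in edgeR and open points did not, and phospholipases and leukotriene genes lie on both sides of 0.

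Across the 11 mice, the 5 genes whose log2 CPM was most like that of *Alox12e*, of 11494 genes that averaged 1 CPM or more, were *Socs2* (Pearson r = 0.98), *Slamf6* (0.98), *Msln* (0.98), *Vcam1* (0.97) and *4930523C07Rik* (0.97). These mice share the group differences, and 508 genes reached 0.9 or more. With the group means taken out, the 5 genes ranked 1, 2, 11, 29 and 40 in this order. By Spearman's rho they ranked 33, 66, 66, 12 and 593, so which genes are most like *Alox12e* depends on the measure. *Socs2*, an inhibitor of cytokine receptor signalling, was 4.49 ± 1.27 CPM in WT, 2.31 ± 0.293 CPM in *Tlr7* KO and 2.06 ± 0.840 CPM in *Ifnar1* KO glands. *Slamf6*, a lymphocyte surface receptor, was 6.35 ± 3.31, 0.982 ± 0.443 and 0.605 ± 0.637 CPM, and *Msln*, the mesothelial surface protein mesothelin, 13.5 ± 5.78, 1.30 ± 0.557 and 1.22 ± 1.31 CPM. *Vcam1*, an adhesion molecule of activated endothelium, was 19.2 ± 5.75, 3.93 ± 2.09 and 2.07 ± 1.62 CPM. Of the relatives, *Alox15* was most like *Alox12e* (0.94), before *Alox12* (0.88), *Alox5ap* (0.84) and *Alox5* (0.14). With the group means taken out the order was *Alox15* (0.78), *Alox5ap* (0.69), *Alox12* (0.50) and *Alox5* (-0.50), and by Spearman's rho *Alox5ap* (0.72) and *Alox12* (0.71) were level. These values describe mice that share a group.

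Markers of lymphocytes, like *Alox12e*, were lower in both knockouts, but within groups they did not always follow it. Of all genes tested, 17.4% were lower in *Tlr7* KO and 12.4% in *Ifnar1* KO glands, the background for the marker counts that follow. All 8 B cell markers were lower in both knockouts, with summed levels of 81.8 to 287 CPM in WT, 6.57 to 49.4 CPM in *Tlr7* KO and 2.51 to 20.9 CPM in *Ifnar1* KO mice. Of 8 T cell markers 6 were lower in *Tlr7* KO and 7 in *Ifnar1* KO glands, with sums of 24.5 to 74.3, 6.003 to 29.9 and 1.42 to 14.4 CPM. Of 9 macrophage markers 4 and 5 were lower, with sums of 119 to 212, 75.6 to 108 and 35.6 to 72.7 CPM. *Ifnar1* KO 3, which had 1 *Alox12e* count, had the lowest sum of all 11 mice on these 3 lists. WT 2 had the lowest WT sum on them, and also on the acinar, myoepithelial, mast cell, squamous epithelial, platelet and neutrophil lists. WT 3, with the most *Alox12e*, was below WT 1 in B cell (245 against 287 CPM), T cell (57.5 against 74.3 CPM) and macrophage sums (173 against 212 CPM). *Tlr7* KO 3 had the lowest B and T cell sums of its group, but *Tlr7* KO 4 and 5 had less *Alox12e*. Myoepithelial sums were 57.0 to 76.4, 34.5 to 44.7 and 41.5 to 46.4 CPM (5 and 1 of 5 tested lower), and mast cell sums 8.73 to 16.9, 9.42 to 12.7 and 10.1 to 11.02 CPM (1 and 0 of 5 lower). The part of these cells in the lipoxygenase differences was not tested.

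**Figure D5:**
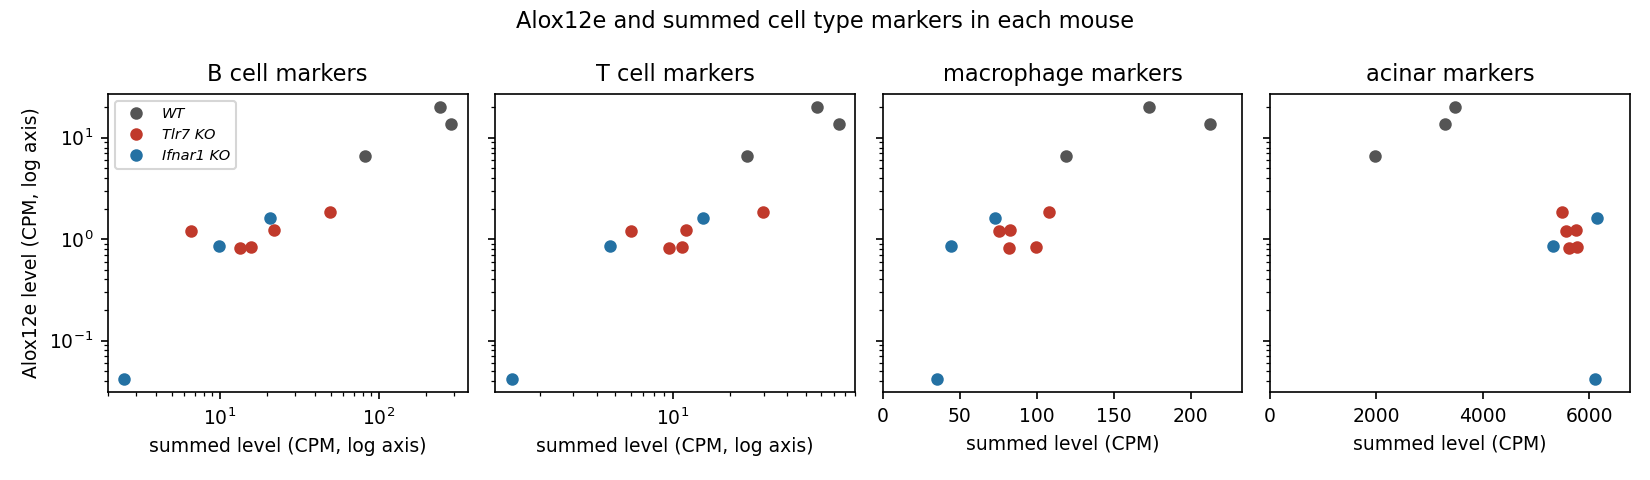
Level of *Alox12e* in each mouse (vertical log axis, CPM) against the summed level of B cell, T cell (horizontal log axes), macrophage and acinar markers (horizontal linear axes, CPM), with 1 point per mouse colored by group. WT mice lie highest in each panel, to the right of all knockout mice for B cell and macrophage markers but with WT 2 left of *Tlr7* KO 2 for T cell markers, *Ifnar1* KO 3 lies at the lower left for these 3 lists, and the WT mice lie at the left for acinar markers.

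Markers of epithelia and granulocytes, in which several of these enzymes are known, were also summed, with the same background for genes called lower and 15.3% and 6.76% of all genes called higher. Squamous epithelial sums, from 8 of 10 genes in the table, were 1.43 to 3.39 CPM in WT, 1.52 to 2.43 CPM in *Tlr7* KO and 2.05 to 2.35 CPM in *Ifnar1* KO mice, with 1 of 4 tested genes lower in each knockout and medians of -1.09 and -1.31 over the 4 on the log2 scale, and *Flg* and *Ivl* had 0 counts in every mouse in the second table. Sebaceous sums were 5.95 to 8.10, 12.05 to 17.4 and 13.1 to 16.3 CPM, with 1 of 3 tested genes higher in each. Eosinophil sums, from 2 of 8 genes, were 5.27 to 6.62, 2.80 to 5.13 and 2.25 to 4.93 CPM, with every knockout mouse below every WT mouse (as for 14.2% and 21.1% of single genes) and the 1 tested gene not called (-0.56 and -0.86), and *Epx*, *Ear1* and *Ear6* had 0 counts in every mouse in the second table. Neutrophil sums were 0.759 to 4.69, 1.03 to 2.30 and 0.796 to 2.02 CPM, with neither of the 2 tested genes called (medians -0.54 and -1.47). The part of these cells was not tested. Duct sums were 165 to 207, 218 to 250 and 233 to 249 CPM, with 1 of 4 tested genes lower in each knockout. Acinar sums were 1968 to 3468, 5479 to 5775 and 5315 to 6142 CPM, with 3 of 6 genes higher and 1 lower in *Tlr7* KO and 2 higher and 1 lower in *Ifnar1* KO glands. The parotid list had 3 of 3 tested genes lower in *Tlr7* KO and none called in *Ifnar1* KO glands, and among the WT mice its sum was high in WT 3 alone, with 0.684 and 1.73 CPM in WT 1 and 2.

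Without those 3 libraries, *Alox12* still fell in *Tlr7* KO glands (-1.47, adjusted p = 0.0129 by edgeR), and *Alox15* had -1.96 (adjusted p = 0.0599) and *Alox5ap* -0.63 (adjusted p = 0.193). The *Ifnar1* KO comparison then rested on 2 WT mice and *Ifnar1* KO 3 alone. With 1 mouse in an arm the spread comes from the 2 WT mice, and the lone mouse is assumed to vary like them. There *Alox12* had -2.01 and *Alox5ap* -2.09, differences no smaller than with all mice but from a lone mouse. *Alox5* had -0.04, against -0.57 with all mice. *Alox12e* had 1 count against 395 and 156, and *Alox15* had 0 counts against 21 and 5. *Ifnar1* KO 3 also had the lowest B cell, T cell and macrophage marker sums of all 11 mice. The difference of *Alox12e* in *Tlr7* KO glands, with WT 3 left out, was -3.06.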

How the data were processed

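Lacrimal gland RNA of 11 male NOD mice was sequenced on an Illumina HiSeq instrument. The authors quantified reads with salmon 0.9.1 (bcbio 1.0.8, Ensembl release 97) and used tximport to sum transcripts per gene. The main deposited table holds these estimated counts, as whole numbers and, judged by their totals, not normalized despite its name. The second deposited table holds raw counts (12233586 to 16621073 per library), made by a counter and strand setting not given in the sources used here, and served as an alternative. HISAT2 2.1.0 and mm10 stand in the submitters' processing notes. 1 column without a sample was not used.

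Fits ran in edgeR 4.0.16, on R 4.3.3. DESeq2 1.42.0 served an alternative. Genes with at least 30 counts summed over WT mice were fitted in separate pairs of groups with TMM scaling and edgeR's two-sided quasi-likelihood test, called at an adjusted p of 0.05. A fold change is knockout relative to WT, or *Tlr7* KO relative to *Ifnar1* KO. Log2 CPM used a prior count of 2. The script was tested on simulated data. No 2 mice of a group agreed within sampling noise (chi-square per gene at least 7.08). Replicate numbers correlated at 0.131 to 0.39 between the knockouts, in each of 3 pairs, from the data alone.

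Members and lists were chosen with earlier results of these data known, and lists were written from general knowledge. Named were the members, *Tlr7*, *Ifnar1*, up to 10 called pathway genes of smallest p per knockout (at least 4), the 5 genes most like *Alox12e* and 3 protein-coding neighbours per side. Annotation is GENCODE M21 on GRCm38, and promoters are from RefSeq. Alternatives were DESeq2, RLE factors, library size only, no low-count filter, the other table, a single fit, a replicate block and each mouse left out. A fit without the libraries with over 100 CPM of parotid transcripts was added after seeing the data.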

Additional observations from a re-analysis of the deposited data

Results flagged for a closer look

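*Gpx4*, which encodes the peroxidase that reduces lipid hydroperoxides, was the only pathway gene called between the knockouts, of 31 tested. Of all genes tested, 1.79% were called there, so a single call is near the background. *Gpx4* was 0.656 higher on the log2 scale in *Tlr7* KO than in *Ifnar1* KO glands (SE 0.123, adjusted p = 0.0304 by edgeR), with 154 to 195 CPM in the 5 *Tlr7* KO mice and 88.2 to 123 CPM in the 3 *Ifnar1* KO mice. The call was lost without any 1 of the mice other than *Ifnar1* KO 2 (adjusted p up to 0.0859) and with scaling by library size only (0.138). Without those single mice, 85 to 144 of all genes were called, against 250 with all mice. It was flagged because the effects of the knockouts differed. None of the 6 groups of 5 *Tlr7* KO mice examined, 1 for each of the 5 measured lipoxygenase genes and *Alox5ap*, held an outlying mouse.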

How the results depend on the processing

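Each sign given here is that of the log2 fold change, and for the reversed values the cause was not tested. Leaving out each mouse in turn gave 2602 to 6664 genes called in *Tlr7* KO, 0 to 4666 in *Ifnar1* KO and 85 to 877 between the knockouts, with 1 to 3, 0 to 3 and 0 to 1 relatives and 8 to 22, 0 to 16 and 0 to 2 pathway genes. In *Ifnar1* KO glands no gene was called by edgeR without *Ifnar1* KO 1 or 3, where 4383 and 3778 genes had an unadjusted p under 0.05. 13 genes were called without WT 1 and 121 without WT 3. Without the libraries with parotid transcripts, 2602 genes, 1 relative and 8 pathway genes were called in *Tlr7* KO and 336, 0 and 1 in *Ifnar1* KO, and 0 pathway genes between the knockouts, where *Alox5* turned to -0.37.

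Replicate numbers were shared between WT and the knockouts only as numbers, with same-number correlations of -0.156, -0.456 and 0.0344 for *Tlr7* KO and -0.193, -0.481 and -0.328 for *Ifnar1* KO. With the replicate block, 14 genes were called in *Tlr7* KO (3633 at an unadjusted p under 0.05) and 0 in *Ifnar1* KO (3787), with 0 relatives and 0 pathway genes in each, and 502 between the knockouts, where *Alox12* turned to -0.065 and *Alox5* to -0.087.

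A single fit of all 11 mice called 5124 genes and 16 pathway genes in *Ifnar1* KO and 93 genes between the knockouts, DESeq2 called 570 genes between the knockouts, and the fit with no low-count filter called 2 pathway genes there. Scaling by library size only called 1340 genes in *Ifnar1* KO and 0 pathway genes between the knockouts. It turned *Gpx4* to -0.054, *Gm21988* to -0.087, *Rnasek* to -0.12 and *Pelp1* to -0.40 in *Tlr7* KO, *Ephx2* to -0.0091 and *Pelp1* to -0.22 in *Ifnar1* KO, and *Alox12* to -0.085 and *Alox5* to -0.013 between the knockouts. *Alox5ap* in *Tlr7* KO passed with DESeq2 (adjusted p = 0.0494) and with library size only (0.0178), and in *Ifnar1* KO it missed with RLE factors (0.0501), library size only (0.0605) and the other table (0.0547).

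With each mouse left out in turn, *Pelp1* in *Ifnar1* KO ran from -0.049 (without *Ifnar1* KO 1) to 0.23, and was -0.0096 without WT 2. Between the knockouts *Alox12e* ran from -0.027 (without *Ifnar1* KO 3) to 1.36, *Alox12* from -0.026 (without *Ifnar1* KO 3) to 0.36, with -0.012 without *Tlr7* KO 5, and *Alox5* from -0.15 (without *Ifnar1* KO 2) to 0.52, with -0.010 without *Tlr7* KO 4. Low counts limit *Alox15*, *Alox5*, *Aloxe3* and *Alox12b* most.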
